A study of Mus musculus with 2 samples.

Results

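Neurons marked by transcripts of Ebf2, Ebf3 and Lmx1a were selected from single-nucleus RNA profiles of the mouse ventral tegmental area (VTA). A barcode was kept when it held at least 500 unique molecular identifiers (UMIs, each counting 1 captured RNA molecule) and when Snap25, Syt1, Meg3, Snhg11, Rbfox3 and Nefl together made up at least 1% of them. Of these neuronal nuclei, those with at least 3 UMIs of Ebf2, Ebf3 and Lmx1a, making up at least 0.1% of the total, were selected. Nuclei were left out when Gad1, Gad2 and Slc32a1 together reached 2 UMIs and 0.04%, when Slc6a3, Slc18a2, Ddc and Th reached 0.1%, when Sim1 and Calcr reached 2 UMIs, or when Synpo2, Lef1, Ptpn3 and Prkcd reached 0.1%. The rule took 492 of 14054 neuronal nuclei and of 27850 barcodes: 136 of 6719 neuronal nuclei in the WT library and 356 of 7335 in the CCI library. The levels of the genes named in the rule are therefore a description of the choice. Nuclei left out by the GABAergic and dopaminergic limits stayed among the other neurons used for comparison. Contrasts in genes that go with those transmitters, or with their absence, thus follow in part from the choice.

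The study profiled the VTA of adult mice in 1 library per group. WT stands for wild-type mice, with no treatment named in the label. The other library is from CCI mice: chronic constriction injury of a sciatic nerve, here the left, was used to induce neuropathic pain, and the nerve of the right side was laid open without a tie. Strain, age in weeks, time after injury, and the number of mice pooled per library are not given in the sources used here, and the protocol text is the same for both libraries. With 1 library per group no difference between WT and CCI could be tested. All intervals are exact 95% intervals that cover counting error only.

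Ebf2 and Ebf3 belong to the early B cell factor family of transcription factors, and Lmx1a and Lmx1b are LIM-homeodomain factors of the ventral midbrain floor plate. Lmx1a-expressing progenitors give rise to dopamine neurons and also to glutamatergic neurons of the neighbouring subthalamic and posterior hypothalamic region. Glutamatergic neurons of the ventral midbrain load vesicles through VGLUT2, encoded by Slc17a6. Tac1 encodes the precursor of the tachykinins substance P and neurokinin A, of which substance P is a main ligand of the receptor encoded by Tacr1.

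The libraries differed in depth. The median was 1951 UMIs per selected nucleus in WT (range 579 to 5216) and 6205 in CCI (1964 to 40950), against 1653 and 6412 in the other neurons, and the selected nuclei summed to 281140 and 2480846 UMIs. Levels are given as CPM, the share of a gene in the UMIs summed over a group of nuclei, scaled to counts per 1e6. The libraries shared 54 barcodes, and 0 barcodes were selected in both. Both libraries carried Y-linked transcripts and 0 Xist UMIs in the selected nuclei. No selected nucleus held 1% or more of oligodendrocyte transcripts, although all 10 oligodendrocyte markers had UMIs: their sum was 1280 CPM in WT and 515 CPM in CCI, against 1677 and 560 CPM in the other neurons.

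The selected nuclei made up 2.02% of neuronal nuclei in WT (1.70 to 2.39) and 4.85% in CCI (4.37 to 5.37), a log2 ratio of CCI over WT of 1.26 (0.97 to 1.56). This ratio moved with the numerical limits of the rule and less with other settings. It was 1.24 with Ebf2 and Ebf3 alone, 1.21 without barcodes called doublets and 1.06 with at least 1000 UMIs per barcode. Without barcodes holding 1% oligodendrocyte transcripts it was 1.23. At 0.2% in place of 0.1% there were 60 and 71 nuclei, with a log2 ratio of 0.12 (-0.40 to 0.64), and at 5 UMIs in place of 3 there were 37 and 318, with 2.98. After every barcode was thinned to 1000 UMIs, which left out shallower ones, 27 of 5452 neuronal nuclei (0.495%) in WT and 82 of 7224 (1.14%) in CCI were selected. The log2 ratio was then 1.20 (0.55 to 1.88). A fixed number of UMIs is a larger fraction of a shallow nucleus: 66 selected nuclei of WT stood at exactly 3 UMIs of the gate genes and 14 of CCI did. Conversely 914 CCI nuclei and 44 WT nuclei had 3 or more of these UMIs but less than 0.1%. Depth and group cannot be told apart here.

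Within the selection the markers did not form 1 uniform set. UMIs of Ebf2 were found in 107 of 136 WT nuclei and 299 of 356 CCI nuclei, of Ebf3 in 87 and 292, and of Lmx1a in 50 and 218. Ebf2 and Ebf3 occurred together in 64 and 244 nuclei, and all 3 genes in 22 and 162. Lmx1a without Ebf2 or Ebf3 was seen in 6 WT and 9 CCI nuclei. The summed levels were 974.6 CPM in WT and 875.5 CPM in CCI for Ebf2, against 26.2 and 42.8 CPM in the other neurons. Ebf3 stood at 650.9 and 473.2 CPM, against 82.5 and 72.6, and Lmx1a at 295.2 and 227.3 CPM, against 31.0 and 40.6. In the GENCODE vM21 annotation of mm10, Ebf2 lies on chromosome 14 (67233292 to 67430918, plus strand), Ebf3 on chromosome 7 (137193673 to 137314445, minus strand) and Lmx1a on chromosome 1 (167689237 to 167848741, plus strand).

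Ebf1 and Lmx1b, of the same families, stood higher in the selected nuclei. Ebf1, which the rule did not use, was measured at 398 CPM in the WT library and 312 CPM in the CCI library, against 155 and 136 CPM in the other neurons, log2 ratios of 1.36 (1.08 to 1.64) and 1.20 (1.09 to 1.30). Lmx1b stood at 78.3 CPM (49.0 to 118) in WT and 68.1 CPM (58.2 to 79.2) in CCI, with log2 ratios of 1.20 and 1.29. The intervals of both genes lay above 0 in each library. In WT, however, Lmx1b reached the count minimum described below only through its 22 UMIs in the selected nuclei, where 9.59 were expected. Its WT ratio therefore had to be above 0, and its interval there is a description. Lmx1b was higher still in neuronal nuclei with dopaminergic transcripts (118 and 132 CPM). Bcl11a, a zinc finger repressor, followed with log2 ratios of 1.24 and 0.97, and Tcf4, a helix-loop-helix factor, with 0.95 and 0.82.

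Meis2, a homeobox factor, was lower. It had 2 UMIs in WT (7.11 CPM) and 61 in CCI (24.6 CPM), against 76.0 and 132 CPM in the other neurons, log2 ratios of -3.42 (-6.47 to -1.56) and -2.43 (-2.81 to -2.06). Of 80 transcription factors listed, 64 had a UMI in the selected nuclei and 14 passed the count minimum described next. Of these 14, 5 were at least 2-fold higher in both libraries, 3 of which were the gate genes and the others Ebf1 and Lmx1b. The 3 that were at least 2-fold lower included Meis2 and Zfhx3. Over all compared genes 0.455% were higher and 0.651% lower. The median log2 ratio of the 14 was 0.26 in WT and 0.11 in CCI, against 0.02 and -0.01 over all tested genes. Without the 3 gate genes, which the rule raises, the median of the remaining 11 was -0.43 and -0.42.

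Against the other neurons, 3074 genes were compared: those with at least 20 UMIs in the selected nuclei, or as many expected there at the level of the other neurons, in each library. A gene that reached this minimum only through its level in the selected nuclei had to be higher, so the counts are a description. At least 2-fold higher in both libraries were 14 genes, or 0.455% of those compared, and 20 genes, or 0.651%, were at least 2-fold lower. Of the 14, 3 were the gate genes. The other 11 were Pde3a, Sulf1, Sema3a, Pdzrn3, Adgrv1, Ebf1, Lmx1b, Plpp4, Reln and the unnamed gene models 4930438E09Rik and 9530026P05Rik, both picked out after their values were seen. Of these 11, only Ebf1 reached the minimum in WT at the level of the other neurons (43.5 UMIs expected). The rest reached it in WT only through the selected nuclei, so their WT ratios had to be above 0. A second comparison used other neurons with at least 2 UMIs of Slc17a6, which are glutamatergic by that transcript. Of 3110 genes compared, 19 were higher and 10 lower. This fixed number of UMIs took 196 nuclei in WT and 1808 in the deeper CCI library.

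**Figure D1:**
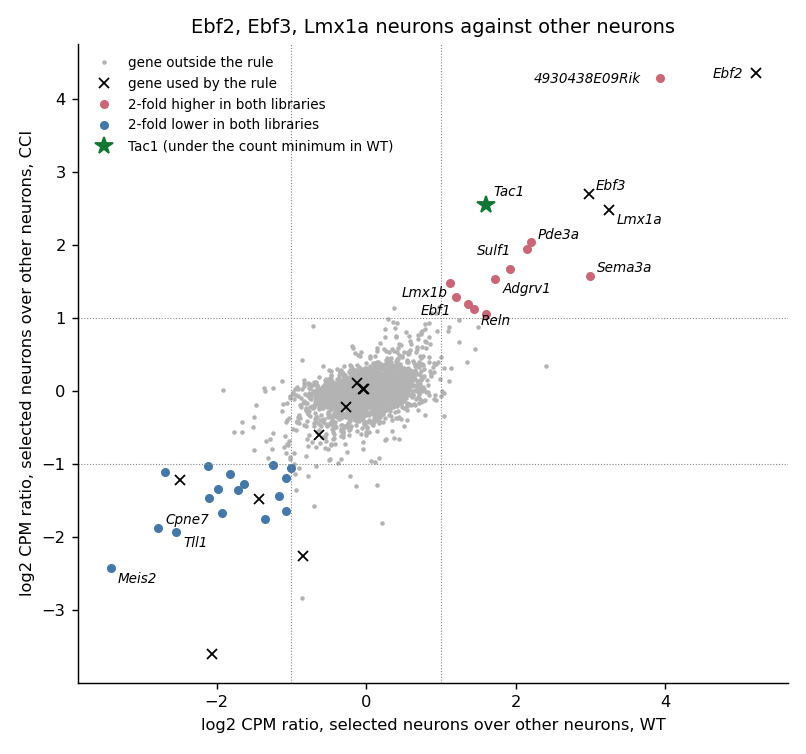
Log2 CPM ratio of the selected nuclei over the other neurons in the WT library (x axis) and in the CCI library (y axis), 1 point per compared gene with a finite ratio in both. Dotted lines mark 2-fold; crosses are genes the rule used, and the green star is Tac1 at 1.61 and 2.54, which was under the count minimum in WT.

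4930438E09Rik shows how closely some of these rows are tied to the rule. It was at 224 CPM in the WT library and 256 CPM in the CCI library, against 14.7 and 13.1 CPM in the other neurons, log2 ratios of 3.93 and 4.29. It is annotated on the minus strand inside Ebf2, at 67332042 to 67397742 of chromosome 14. How strand was used in counting is not given in the sources used here, so its reads and those of Ebf2 cannot be told apart.

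Sema3a, a secreted axon guidance cue, had 27 UMIs in WT (96.0 CPM) and 176 in CCI (70.9 CPM), against 12.1 and 23.7 CPM in the other neurons, with log2 ratios of 2.99 (2.34 to 3.59) and 1.58 (1.34 to 1.81). Sulf1, an enzyme that removes sulfate from heparan sulfate, stood at 149 and 168 CPM, with log2 ratios of 2.16 and 1.94. Reln, the secreted glycoprotein reelin, gave 1.44 and 1.13, and the adhesion receptor Adgrv1 gave 1.73 and 1.54. Erbb4, a neuregulin receptor, was at 4016 and 3552 CPM, with log2 ratios of 0.97 and 1.15, under 2-fold in WT. For Sema3a the WT ratio exceeded the CCI ratio, and the level in the other neurons was lower in WT than in CCI.

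The cyclic nucleotide phosphodiesterase Pde3a had 45 UMIs in WT (160 CPM, 117 to 214) and 370 in CCI (149 CPM, 134 to 165), against 34.8 and 36.3 CPM in the other neurons, log2 ratios of 2.20 and 2.04. Plpp4, a lipid phosphate phosphatase, gave 1.13 and 1.48, and Pdzrn3, a PDZ-domain ubiquitin ligase, 1.92 and 1.68. Exons of Pde3a and of Reln overlap an antisense gene model, Gm28523 and Gm10475, so part of their UMIs may belong to those. The remaining named genes with the highest ratios were Lncenc1, Chst8, Pard3b, Thsd7b, Trpm3, Chrm3, Sema5b and Tmem163, whose log2 ratios ran from 0.79 in Sema5b and Tmem163 in WT up to those of Chst8 (85.4 CPM against 30.1 CPM in WT).

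The genes that stood lowest came from several functional classes. Cpne7, a calcium-dependent membrane-binding copine, was at 14.2 CPM in the WT library and 32.2 CPM in the CCI library, against 97.6 and 118 CPM. Its log2 ratios were -2.78 and -1.87. Tll1, an extracellular metalloprotease, gave -2.54 and -1.93, and Sv2c, a synaptic vesicle protein, -1.93 and -1.67. Clstn2, a synaptic cell adhesion protein, was at 199 and 251 CPM against 707 and 550 CPM, with log2 ratios of -1.83 and -1.13. Rreb1, Lrmda, Rnf220 and Lhfp were lower as well, with ratios between -2.69 (Rreb1, WT) and -1.08 (Lhfp, WT). Of the 20 genes past 2-fold, 3 were limited by the rule itself (Slc6a3, Slc18a2 and Ddc). The gene model 1700042O10Rik, also among the 20, lies on the opposite strand inside Ddc. A330015K06Rik, Lncbate1 and 4921534H16Rik lie likewise inside Kcnab1, Zfhx3 and Clstn2, all among the 20. The reads of such pairs cannot be told apart here, so the 20 are not all separate genes.

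The vesicular glutamate transporter gene Slc17a6 stood higher in the selected nuclei than in the other neurons. The other neurons held 577 nuclei with GABAergic and 1153 with dopaminergic transcripts in WT, and 1622 and 502 in CCI. The rule kept such nuclei out of the selection, so part of this contrast is built into the choice, and its size was not tested. The gene (chromosome 7, 51622006 to 51671119) had 66 UMIs in 50 of 136 WT nuclei and 567 UMIs in 243 of 356 CCI nuclei. Its level was 235 CPM (182 to 299) in WT and 229 CPM (210 to 248) in CCI, against 99.1 and 143 CPM in the other neurons, log2 ratios of 1.24 (0.86 to 1.60) and 0.68 (0.55 to 0.80). The level of Slc17a6 in the selected nuclei was close in the libraries (log2 ratio of CCI over WT -0.04, -0.41 to 0.35), and its lower ratio in CCI went with a higher level in the other neurons there. A UMI was found in 36.8% of nuclei in WT and 68.3% in CCI. At a fixed depth of 1000 UMIs these shares were both 20.8% (27 of 130 and 74 of 356 nuclei), against 9.02% and 13.4% of other neurons and 3.88% and 4.73% of oligodendrocyte nuclei, which should lack the gene and had median depths of 732.5 and 1995 UMIs.

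The other vesicular glutamate transporters had few UMIs. In WT neither Slc17a7 nor Slc17a8 had a UMI, and in CCI they had 2 and 17, where 3 counts would correspond to 10.7 CPM in WT and 1.21 CPM in CCI. For Slc17a8 the CCI level was 6.85 CPM, against 7.74 CPM in the other neurons. Chat, for acetylcholine synthesis, and Slc6a5, for glycine transport, had 0 UMIs in both libraries. Of 18 fast transmitter and monoamine genes listed, 13 had a UMI, 4 passed the minimum and 0 were past 2-fold in both libraries. With 0.455% of all compared genes higher and 0.651% lower, 0 of 4 is no result about these genes. Transcripts limited by the rule were seen at low levels: Gad2 at 60.5 and 24.2 CPM, and Slc18a2 at 53.4 and 54.4 CPM. Th had 0 UMIs in WT, against 16 in CCI.

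Tac1 (chromosome 6, 7554879 to 7565834, plus strand) was higher in the selected nuclei than in the other neurons of both libraries, and its level was higher in CCI than in WT. In WT it had 14 UMIs, each in a nucleus of its own, or 10.3% of nuclei (5.74 to 16.7), and 49.8 CPM (27.2 to 83.6). In CCI it had 371 UMIs in 126 nuclei, or 35.4% (30.4 to 40.6), and 150 CPM (135 to 166). The other neurons stood at 16.4 and 25.6 CPM, giving log2 ratios of 1.61 (0.71 to 2.39) in WT and 2.54 (2.37 to 2.71) in CCI. Tac1 was listed as a marker of these nuclei with earlier results of the same data known, so its higher level in the selection is a description.

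Most selected nuclei had no Tac1 UMI. Of the CCI nuclei, 230 had 0 UMIs, 47 had 1, 56 had 2 to 4, 19 had 5 to 9 and 4 had 10 or more, up to 14. At 1000 UMIs per nucleus a Tac1 UMI was found in 3.85% of the WT nuclei (5 of 130, interval 1.26 to 8.75) and in 14.0% of those of CCI (50 of 356, interval 10.6 to 18.1). Other neurons gave 1.70% and 2.40%, and oligodendrocyte nuclei, in which Tac1 is not expected, 0.971% and 1.22%. The WT interval at this depth overlapped those of both comparison groups, and the CCI interval lay above them. Neurons with dopaminergic transcripts had 6.88 and 4.95 CPM of Tac1, below the 9.15 and 11.3 CPM of oligodendrocyte nuclei.

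Tac1 UMIs were also found in nuclei just outside the limits of the rule. In CCI, 396 neuronal nuclei with at least 3 gate UMIs but 0.05% to under 0.1% had 90.3 CPM of Tac1. Those just inside, at 0.1% to under 0.15%, had 156 CPM, those at 0.15% or more 141 CPM, and those with 0 gate UMIs 20.5 CPM. In WT, 151 nuclei just outside with 2 gate UMIs had 71.0 CPM, those just inside 67.8 CPM and those at 0.15% or more 39.3 CPM. The 16 WT nuclei with at least 3 gate UMIs but 0.05% to under 0.1% had 0 Tac1 UMIs (0 to 51.5 CPM).

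**Figure D2:**
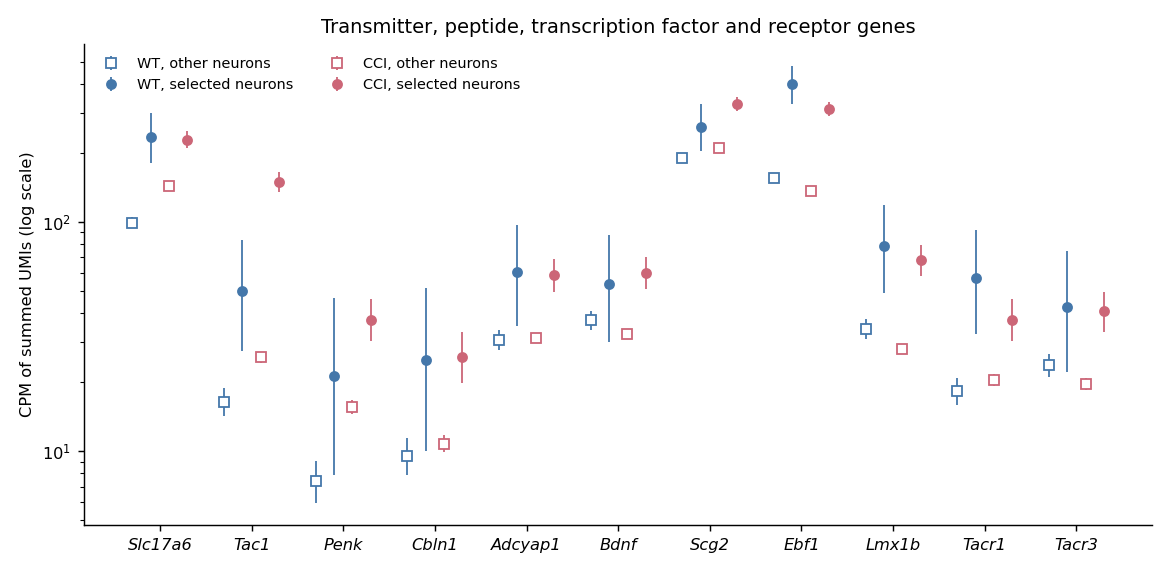
CPM of summed UMIs (log axis) of 11 genes in the selected nuclei (filled circles) and other neurons (open squares) of the WT (blue) and CCI (red) libraries, with exact Poisson 95% intervals. Tac1 is the gene with the widest separation between WT and CCI among the selected nuclei, at 49.8 and 150 CPM, while Slc17a6 is at 235 and 229 CPM.

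Other peptide and secreted-protein genes were seen at lower counts. Penk, the enkephalin precursor, had 6 UMIs in WT (21.3 CPM) and 93 in CCI (37.5 CPM), with log2 ratios over the other neurons of 1.53 (0.05 to 2.71) and 1.27 (0.94 to 1.58). Cbln1, a secreted synapse organiser, gave 1.39 (0.05 to 2.48) and 1.26 (0.86 to 1.63), and Adcyap1, the precursor of PACAP, 0.98 (0.19 to 1.68) and 0.91 (0.65 to 1.15). The counting intervals of these 3 genes lay above 0 in both libraries, but the genes were named for their ratios and were under the count minimum. Bdnf (0.52 and 0.89) and Scg2, a granin of dense-core vesicles (0.44 and 0.64), differed less. Cck was lower, with 1 UMI in WT and 28 in CCI and log2 ratios of -2.17 (-7.48 to 0.33) and -1.04 (-1.64 to -0.50), and Sst gave -0.62 (-2.91 to 0.95) and -1.39 (-1.88 to -0.93). Of 47 peptide genes listed, 36 had a UMI and 15 had at least 20 UMIs. Only 2 passed the minimum in both libraries, of which 0 were past 2-fold. Over all compared genes 0.455% were higher and 0.651% lower, so this count is no result about peptide genes. Exons of Penk and Bdnf overlap antisense models (A830012C17Rik and Gm45346).

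All 60 receptor genes listed had a UMI, 6 passed the minimum and 0 were past 2-fold in both libraries. Over all compared genes 0.455% were at least 2-fold higher and 0.651% lower, so 0 of 6 is no result about receptors. Of the receptor genes named here Chrm3 passed the minimum and the others did not. Tacr1, the substance P receptor, had 16 UMIs in WT (56.9 CPM, 32.5 to 92.4) and 93 in CCI (37.5 CPM, 30.3 to 45.9), against 18.2 and 20.5 CPM, log2 ratios of 1.64 (0.81 to 2.37) and 0.87 (0.55 to 1.18). Tacr3, the receptor that prefers neurokinin B, gave 0.85 (-0.12 to 1.68) and 1.05 (0.74 to 1.34). Calcrl, which forms the receptors for calcitonin gene-related peptide and adrenomedullin, gave 2.25 (1.07 to 3.24) and 1.62 (1.19 to 2.02) from 9 and 57 UMIs. Chrm3, the M3 muscarinic receptor, gave 1.09 and 0.82, and Oprd1, the delta opioid receptor, 0.72 (-1.59 to 2.32) and 1.33 (0.81 to 1.82). Drd2, the dopamine autoreceptor of dopamine neurons, stood at 3.56 CPM (1 UMI) and 8.87 CPM (22 UMIs), against 62.2 and 35.4 CPM.

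Of 54 ion channel genes listed, 39 passed the minimum. Of these, 0 were at least 2-fold higher and 1 was at least 2-fold lower in both libraries, where 0.651% of all compared genes were lower: Kcnab1, an accessory subunit of voltage-gated potassium channels (-1.07 and -1.19). Kcnd3, the A-type channel Kv4.3, was close to that limit (-1.01 and -0.93). Kcnq5, an M-current subunit, was at 815 and 982 CPM against 488 and 569 CPM (0.74 and 0.79), and Cacna2d1, a calcium channel subunit bound by gabapentin, at 953 and 1093 CPM against 550 and 682 CPM (0.79 and 0.68). Of 42 ionotropic receptor genes, 22 passed the minimum and 0 were past 2-fold in both libraries, with medians of 0.08 and 0.06. Over all compared genes 0.455% were higher and 0.651% lower. Grik3, a kainate receptor subunit, gave -0.89 and -1.05.

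Grouping all neuronal nuclei by their expression, without Tac1 and the genes of the rule, split the selected nuclei. Of 24 clusters, cluster 6 held 130 of the 492 (31 of WT, 99 of CCI), cluster 8 held 110 (14 and 96), cluster 0 held 83 (32 and 51) and cluster 14 held 57 (30 and 27). The first 3 held 65.7% of the selected nuclei, which made up 15.8%, 22.4% and 3.67% of the nuclei in those clusters. The selection was therefore not 1 cluster, and the clusters are given by number. Cluster 8 was led by Ntng2, Cdh23, Sema3a and Pappa2, and cluster 6 by Crhbp, Nfib and Adgrv1. Cluster 14 was led by 4930438E09Rik, Sulf1 and Bnc2, and cluster 0 by Cpa6, Adcyap1 and Sim1. Apart from Sim1 these are values of genes open to the clustering, so they describe the clusters. 4930438E09Rik, whose reads cannot be told apart from those of Ebf2, was not taken out, so signal of Ebf2 may have entered. Sim1, a gene of the rule, was left out of the clustering and stood at 52.9 CPM in all nuclei of cluster 0, against 21.1 CPM outside it.

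Tac1, which was left out of this clustering, was concentrated in cluster 8. Its selected nuclei had 4 UMIs in WT (129 CPM, 35.1 to 330) and 240 of the 371 UMIs in CCI (344 CPM, 302 to 390), where 70.8% of nuclei had a UMI. Cluster 6 stood at 30.8 and 80.6 CPM, cluster 0 at 54.9 and 125 CPM, and cluster 14 at 36.1 and 9.11 CPM. Cluster 8 held 10.3% of the selected nuclei of WT (5.74 to 16.7) and 27.0% of those of CCI (22.4 to 31.9). Between the libraries, the log2 ratio of CCI over WT for Tac1 was 1.39 (-0.53 to 4.47) in cluster 6, 1.19 (-0.28 to 3.13) in cluster 0 and -1.99 (-5.77 to 1.80) in cluster 14, and cluster 8 had too few WT nuclei for the limit of 20 set for a ratio. In these 3 clusters the intervals included 0, and the CPM averaged over them with equal weight gave a log2 ratio of 0.82. In the clustering on all genes, which used Tac1 itself, the ratio was 1.01 (0.064 to 2.15) in cluster 9, an interval that excludes 0, from 9 UMIs in WT and 272 in CCI, and 1.55 (-0.07 to 3.87) in cluster 11.

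**Figure D3:**
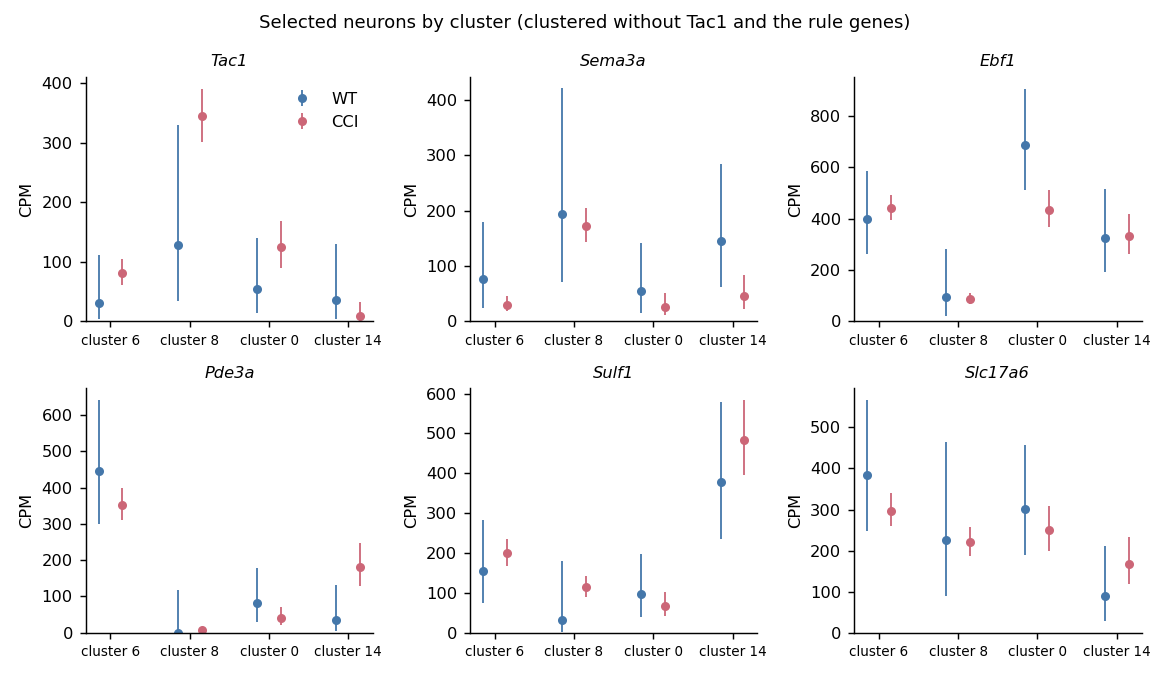
CPM of 6 genes in the selected nuclei of the 4 clusters that hold most of them, for WT (blue) and CCI (red), with exact Poisson 95% intervals on linear axes from 0. Tac1 is highest in cluster 8 (129 and 344 CPM), where Ebf1 and Pde3a are low, while Slc17a6 is found in all 4.

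The other genes separated the same clusters. Pde3a was at 446 and 351 CPM in cluster 6, and at 0 and 7.16 CPM in cluster 8. Sema3a was at 193 and 172 CPM in cluster 8, and Sulf1 at 379 and 483 CPM in cluster 14. Sulf1 also had 10 UMIs in WT and 144 in CCI in cluster 6, more CCI UMIs than the 106 in cluster 14. Slc17a6 ranged from 90.3 CPM (cluster 14) to 385 CPM (cluster 6) in WT and from 168 to 297 CPM in CCI.

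Between the libraries, 2749 genes were compared within the selected nuclei, each with a pooled level at which at least 20 UMIs were expected in either library. At least 2-fold higher in CCI were 18 genes, or 0.655%, and 5 genes, or 0.182%, were at least 2-fold lower, with a median log2 ratio of -0.01. Of the 18, Tac1 had a log2 ratio of CCI over WT of 1.59 (0.82 to 2.47), against 0.65 in the other neurons, and was the only one also above the other neurons in WT. The remaining 17 were all lower in the selected nuclei than in the other neurons of WT (log2 ratios -1.24 to -0.22), within -0.22 to 0.29 of the other neurons in CCI, and between 0.05 and 0.59 for CCI over WT in the other neurons. They include the granin Chga (1.02) and the glycoprotein Bsg (1.73, 0.78 to 2.87). With 1 library per group and different depths, a difference between the groups cannot be told apart from one between these libraries.

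Crhbp, whose product binds corticotropin-releasing hormone, had 3 UMIs in WT (10.7 CPM) and 118 in CCI (47.6 CPM), a log2 ratio of 2.16 (0.57 to 4.45), against 1.25 in the other neurons. It lay mainly in cluster 6, with 88 UMIs in CCI and 0 in WT. Pebp1, an inhibitor of Raf kinase signalling, had 1 UMI in WT and 116 in CCI (3.72, 1.21 to 9.03), and Kmt2d, a histone H3 methyltransferase, 1 and 103 (3.54, 1.03 to 8.86), with 0.31 and -0.13 in the other neurons. Ivd, Sumo2, Kcna6, Gapdh, Pde1c, Sqle and Podxl2 followed with ratios of 1.31 (Podxl2) to 2.47 (Gapdh), each from 12 or fewer UMIs in WT. These values rest on very few molecules in the WT library. Of the genes named in this paragraph, only Podxl2 passed the count minimum and is among the genes counted as higher. Cdh23, a leading gene of cluster 8, gave 1.72 (0.46 to 3.36).

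Apart from Tcf7l2, named from the list of transcription factors, the genes named as lowest in CCI were chosen by the interval bound nearest to 0. Megf11 (38 and 117 UMIs), Fign (25 and 79), Tcf7l2 (17 and 45) and Hsph1 were under the count minimum and so were not among the 5 genes counted as lower. Megf11 was at 135 CPM in the WT library and 47.2 CPM in the CCI library, a log2 ratio of -1.52 (-2.06 to -0.95), against -0.13 in the other neurons. Fign, a microtubule-severing enzyme, gave -1.48 (-2.15 to -0.77) against 0.53, and Adcy2, an adenylyl cyclase, -0.86 against 0.05. Kcnip4, an accessory subunit of Kv4 channels, was at 5175 and 3273 CPM (-0.66, -0.74 to -0.58) against 0.43 in the other neurons, but gave 0.34 (0.08 to 0.61) within cluster 6 and -0.64 within cluster 14. Nrxn3, a presynaptic adhesion molecule, likewise gave -0.58 over all selected nuclei, 0.44 (0.16 to 0.74) within cluster 6 and -0.54 within cluster 0. Qk, an RNA-binding protein, and Atxn2l were as much lower in the other neurons, with -0.93 against -0.98 and -1.02 against -1.04. Pbx3, Plcl1, Hsph1, Stxbp6 and Sik2 lay between -1.07 and -0.80. Tcf7l2, a factor of the Wnt pathway abundant in thalamus, gave -1.74 (-2.57 to -0.84) against 0.23.

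**Figure D4:**
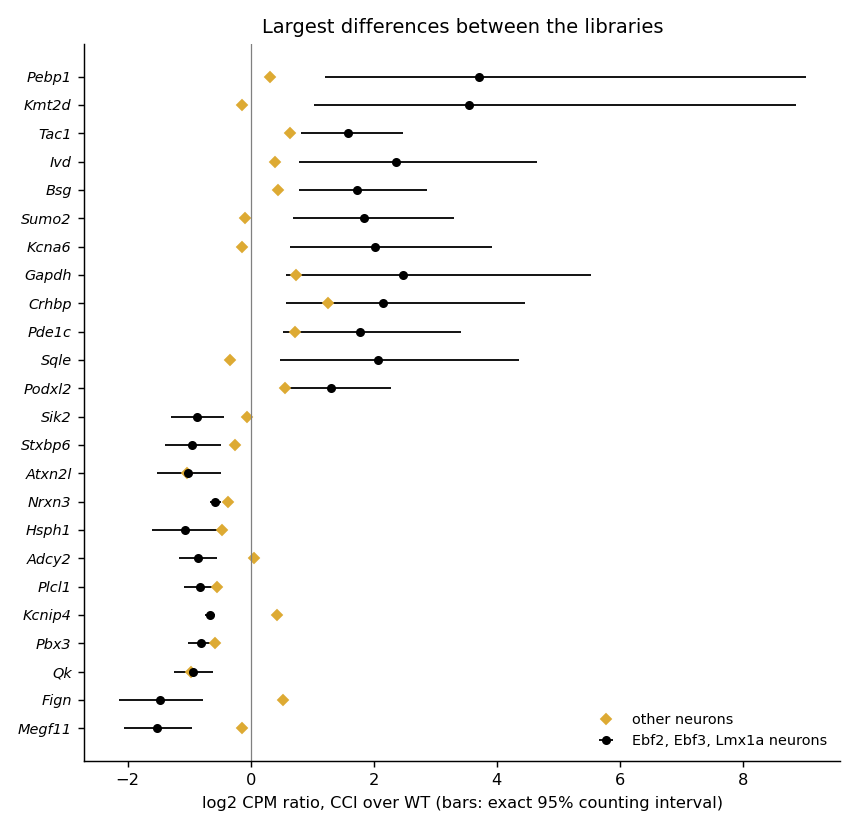
Log2 ratio of CCI over WT of the 12 highest and 12 lowest genes by the interval bound nearest to 0, in the selected nuclei (black, exact 95% counting interval) and in the other neurons (yellow diamonds). Tac1 is at 1.59 and 0.65, and Qk and Atxn2l have nearly the same value in both groups, between -1.04 and -0.93.

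The 5 genes at least 2-fold lower included Atxn2l and the mitochondrially encoded mt-Co1 (-1.13), mt-Atp6 (-1.12) and mt-Nd3 (-1.20). In the other neurons the mitochondrial genes gave -1.10, -1.48 and -1.52. Mitochondrial UMIs made up 0.423% of the selected nuclei's UMIs in WT and 0.234% in CCI. The 9 mitochondrial genes compared had a median log2 ratio of -0.82. The part of these RNAs in the other differences was not tested.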

How the data were processed

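The deposited matrices hold raw UMI counts per gene and barcode for 2 libraries, with 32285 features each, written by Cell Ranger 7.1.0 per the file headers. The submitters' processing notes also name mm10. The gene lists, the selection and its markers were chosen with earlier results of these data known. Counts were summed over nuclei of a library and divided by the group's total to give CPM. Ratios carry exact conditional intervals, CPM exact Poisson intervals and shares Clopper-Pearson intervals (95%), all for counting error only. Genes were compared with at least 20 UMIs observed, or expected at the level of the other neurons (between libraries, at the pooled level), in each library, and called past 2-fold. No test was made, since each group has 1 library, and labels do not say whether animals were pooled.

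Named genes were the 20 highest and 10 lowest against other neurons, the 12 highest and 12 lowest between libraries with at least 100 UMIs, Tac1 and the rule's genes, and up to 8 and 4 per list from 11 lists. Unnamed models, ribosomal, mitochondrial, sex-linked and glial genes were left out of the first 2 sets. Neuronal nuclei were clustered (Scanpy 1.11.5, leidenalg 0.10.2; 2000 variable genes scaled within a library, 30 components, 20 neighbours, resolution 1), and again without Tac1 and the rule's genes, a choice made after seeing the data. Scrublet doublets were kept in the main values (8 of 136 and 23 of 356 selected nuclei). Gene positions are from GENCODE vM21, which held 99.8% of the features. The intervals were checked on simulated counts for 2749 genes between the libraries and held the true value in 96.1%. These were Poisson counts drawn from pooled levels, as the intervals assume, so the check covers the calculation only. It holds no variation between nuclei, clusters or animals. Alternatives used edgeR 4.0.16 (TMM). Values of some genes are not reported here.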

Additional observations from a re-analysis of the deposited data

How the results depend on the processing

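The share of neurons had a log2 ratio of 0.12 with the limit at 0.2% and 2.98 at 5 UMIs. In the other settings it stayed within its interval, among them thinning to 1000 UMIs (1.20). Genes at least 2-fold higher in the selected nuclei numbered 8 at 0.2%, 7 at 5 UMIs, 2 after thinning to 1000 UMIs, 179 without a count minimum and 6 at a minimum of 50 UMIs; those lower numbered 6, 3, 1, 80 and 3, and 10 against other Slc17a6 neurons. Genes higher in CCI numbered 11, 5, 5, 1185 and 0 under the same settings. Those lower numbered 9 at 0.2%, 1 after thinning, 1681 without a minimum and 2 at 50 UMIs. The number of genes compared changed too, so these counts are not shares. Over the other neurons 1004, 873, 190, 13702 and 1121 genes were compared in that order, against 3074 in the main setting. Between libraries 835, 727, 154, 13706 and 975 were compared, against 2749. The largest cluster held 38.2% of the selected nuclei with all genes and 26.4% without Tac1 and the rule's genes. Turns of sign are listed for named genes with a main ratio of at least 2-fold, in both libraries for ratios over the other neurons. Turns of smaller ratios are left out, apart from Kcnip4 and Nrxn3. The sign turned for Reln in WT at 5 UMIs (-0.15). After thinning it turned, over the other neurons, for Plpp4 (-0.043), Reln (-0.050) and Nr2f2 (0.98) in WT and for Sv2c (0.23) and Cck (0.16) in CCI, and between libraries for Sumo2 (-0.60), Atxn2l (1.20), mt-Co1 (0.57) and mt-Nd3 (0.98). Within single clusters it turned for Tac1 (-1.99, cluster 14), Pde1c (-0.62, cluster 0) and Tcf7l2 (0.33, cluster 14). In cluster 6 it turned for Cdh23 (-2.47), mt-Nd6 (0.99) and mt-Nd3 (1.58). Each of these cluster values rested on 1 or 2 UMIs in WT, with an interval that included 0. Tac1 in cluster 14 had 2 UMIs in each library. The sign also turned in cluster 6 for Kcnip4 (0.34, 0.08 to 0.61) and Nrxn3 (0.44, 0.16 to 0.74), with intervals that exclude 0. Their values over all selected nuclei were -0.66 and -0.58. Thinning left 27 and 82 nuclei and 190 compared genes; the cause of each other turn was not tested. For Tac1 the log2 ratio of CCI over WT was 2.06 at 0.2%, 2.73 at 5 UMIs, 1.97 with Ebf2 and Ebf3 alone, 1.76 without doublets, 1.40 after thinning (an interval that includes 0) and 1.60 with TMM scaling. Of 1757 values over the other neurons 1474 stayed within their interval, and of 635 between libraries 488 did. No paired analysis was possible because each group has 1 library.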

Other observations

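Identity genes were compared in selected nuclei of CCI with and without a Tac1 UMI. Slc17a6 was at 237 CPM (207 to 270) in the 126 with Tac1 and 223 CPM (200 to 248) in the 230 without, Ebf1 at 296 and 323 CPM, and Lmx1b at 69.8 and 67.1 CPM. Calb2, the calcium-binding protein calretinin, was at 63.6 CPM (48.8 to 81.6) and 35.2 CPM (26.4 to 46.0). The nuclei with Tac1 were deeper, with medians of 7568 and 5622.5 UMIs. Nuclei of CCI with an Lmx1a UMI had 169 CPM of Tac1 (150 to 189) and those without 107 CPM (85.5 to 133), and 72.6 and 27.1 CPM of Adcyap1. The 9 CCI nuclei with Lmx1a and no Ebf2 or Ebf3 had 0 Tac1 UMIs, and of the 6 such WT nuclei 2 had a Tac1 UMI (188 CPM, 22.8 to 680).

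Activity and stress genes were sparse. Of 20 immediate early genes, 19 had a UMI in the selected nuclei and 1 was compared between libraries, Homer1, at 103 and 81.8 CPM. Junb, named from the list for its ratio, was under the count minimum. It had 3 UMIs in WT and 46 in CCI, with log2 ratios over the other neurons of 0.47 (-1.83 to 2.06) and 1.57 (1.09 to 2.02). Exons of Junb overlap Prdx2 on the other strand, so part of its UMIs may belong to that gene. Of 18 injury and stress genes, 5 were compared between libraries and 0 were past 2-fold, with a median log2 ratio of CCI over WT of 0.61. Over all genes compared between libraries 0.655% were at least 2-fold higher and 0.182% lower, so 0 of 5 is no result about stress genes. Of the heat shock genes, Hspa5 gave 0.66 (0.11 to 1.26), Hsp90aa1 0.61 (0.08 to 1.18) and Hspa8 0.68 (0.07 to 1.36), and Hsph1, under the count minimum, -1.07 (-1.60 to -0.52), against 0.15, 0.27, 0.28 and -0.46 in the other neurons. Of 12 glucocorticoid-responsive genes, 2 were compared and 0 were past 2-fold, too few to set against the same shares. Zbtb16, a zinc finger factor, gave -0.93 (-1.52 to -0.30).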
